A study of Homo sapiens with 6 samples.

Results

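Small nucleolar RNAs and the noncoding genes that host them were read in U87MG cells, a human glioblastoma line, that carried a lentiviral short hairpin RNA. The members are array rows whose annotation gives a single symbol starting with SNORD, SNORA, SCARNA or SNHG, with the row of highest mean kept for each gene. Of 262 such genes, 198 had a mean over the 6 arrays at or above 3.98, the median of all transcript cluster rows. They comprise 113 of 173 SNORD genes, 61 of 64 SNORA genes, 20 of 21 SCARNA genes and all 4 SNHG genes, among 14395 genes on the array at or above that level. Members were thus chosen by their mean value over the 6 arrays, and that level is no finding. A mean can pass through its higher group: 6 of the 198 had a shGFP mean under 3.98 and a hairpin mean above it.

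The study has 3 groups of 2 arrays. The shGFP group carried a hairpin against GFP and is the control, and the sh50 and sh52 groups carried hairpins whose names match the last digits of a pair of library clones in the design text. Every group was infected, drug selected and grown for 5 days before total RNA was taken with a column kit. The series title names SAT1, which encodes an enzyme of polyamine breakdown, and the design text gives no target for either hairpin. SAT1 stood at 9.45 and 8.96 (log2) with shGFP, at 9.36 and 8.35 with sh50, and at 10.83 and 7.84 on the arrays labelled sh52 replicates 1 and 2. The array labelled sh52 replicate 1 thus goes against a lowered SAT1, and sh50 replicate 1 lay between the controls, so SAT1 gives no check of that label. Each sh52 value and each mean over both hairpins below draws on the array labelled sh52 replicate 1. The 8 spike-in controls of the array labelled sh52 replicate 1 averaged 9.83, against 8.88 to 9.26 on the other 5 arrays, and its part in the results was not tested unless a value without it is given. The median over all transcript cluster rows lay between 3.92 and 4.07 on the 6 arrays. VIM, CD44, NES, FN1 and TNC, which mesenchymal and glioma lines express, were above 3.98 on every array, GFAP lay at 4.41 to 4.56, and SOX2 and OLIG2 lay below 3.98 on every array. The leukocyte markers PTPRC and CD14 were below it on every array too, CD3E lay at 3.71 to 4.06, and the endothelial markers PECAM1, CDH5 and VWF averaged below it. Of the epithelial markers, CDH1 and KRT5 were below it on every array and EPCAM lay at 4.72 to 5.31. Nothing in the labels tells whether the replicates are separate cultures, so each p-value reflects the spread between these arrays alone, and that spread may be technical. In such bulk samples, fewer cells that carry an RNA and less of it per cell cannot be told apart.

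Small nucleolar RNAs are short stable RNAs that pair with other RNAs and guide chemical modification of them. Box C/D RNAs, named SNORD, guide methylation of ribose with the methyltransferase fibrillarin, and box H/ACA RNAs, named SNORA, guide conversion of uridine to pseudouridine with dyskerin. SCARNA species act in Cajal bodies on the RNAs of the spliceosome. Most human members are cut from introns of a host gene after splicing, and for SNHG genes the spliced host transcript is noncoding and often short-lived. A few, among them SNORD3 (U3) and SNORD13, are transcribed from promoters of their own.

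The promoter windows of the 4 SNHG genes kept and of SNHG14, the host of the SNORD116 copies, are shown because the results turn on small RNAs cut from such hosts. They are RefSeq windows on GRCh38.p14 from 250 bases before to 50 bases after the annotated start, read 5′ to 3′ on the strand of the gene. Capitals mark the first 5 transcribed bases.
SNHG14 promoter window, chr15:24823358-24823657, plus strand: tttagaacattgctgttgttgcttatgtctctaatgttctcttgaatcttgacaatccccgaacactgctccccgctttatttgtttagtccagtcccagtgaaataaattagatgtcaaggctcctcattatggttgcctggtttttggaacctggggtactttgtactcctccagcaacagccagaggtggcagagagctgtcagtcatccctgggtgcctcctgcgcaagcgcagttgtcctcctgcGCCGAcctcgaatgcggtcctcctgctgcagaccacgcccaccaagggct
SNHG17 promoter window, chr20:38435279-38435578, minus strand: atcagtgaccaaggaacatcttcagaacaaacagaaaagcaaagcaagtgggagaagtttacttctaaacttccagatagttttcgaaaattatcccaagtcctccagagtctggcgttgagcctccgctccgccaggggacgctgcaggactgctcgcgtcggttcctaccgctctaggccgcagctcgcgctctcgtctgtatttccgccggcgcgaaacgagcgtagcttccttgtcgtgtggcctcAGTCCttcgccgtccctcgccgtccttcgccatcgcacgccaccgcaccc
SNHG8 promoter window, chr4:118278512-118278811, plus strand: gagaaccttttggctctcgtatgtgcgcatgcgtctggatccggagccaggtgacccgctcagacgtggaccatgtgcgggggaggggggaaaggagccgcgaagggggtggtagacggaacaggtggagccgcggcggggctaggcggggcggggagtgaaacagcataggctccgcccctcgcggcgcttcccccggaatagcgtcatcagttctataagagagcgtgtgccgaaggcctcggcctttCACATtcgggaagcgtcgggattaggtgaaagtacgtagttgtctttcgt
SNHG21 promoter window, chr15:82750314-82750613, plus strand: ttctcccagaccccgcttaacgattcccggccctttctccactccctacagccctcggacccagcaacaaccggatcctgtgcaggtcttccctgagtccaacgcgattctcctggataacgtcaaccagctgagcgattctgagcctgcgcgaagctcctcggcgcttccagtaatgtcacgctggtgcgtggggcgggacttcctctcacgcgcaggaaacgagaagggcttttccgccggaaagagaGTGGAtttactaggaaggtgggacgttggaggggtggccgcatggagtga
SNHG33 promoter window, chr3:183447358-183447657, plus strand: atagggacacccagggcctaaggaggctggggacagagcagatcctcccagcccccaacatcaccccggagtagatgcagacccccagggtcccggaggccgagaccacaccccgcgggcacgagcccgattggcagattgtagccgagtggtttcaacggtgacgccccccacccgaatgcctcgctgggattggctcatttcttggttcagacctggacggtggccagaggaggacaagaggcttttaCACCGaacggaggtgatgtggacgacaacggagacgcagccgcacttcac
The genes of many translation factors and snoRNA hosts start with a C followed by a run of C or T, a 5′ terminal oligopyrimidine start. Searched on the transcribed strand at the annotated start, with C followed by 4 bases that are each C or T, this start was not found in any of the 5 windows. It was present in 4.07% of 35097 windows and in 7 of the 28 windows of SNHG genes, GAS5 and ZFAS1. A start moved by a few bases would not be found, so no match says only that these letters are not at that position.

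Against shGFP, most members had higher values with the hairpins, but no single member passed the test. In the mean of sh50 and sh52 against shGFP, 143 of 198 members were higher and 55 lower, with a median log2 difference of 0.23, while the median over all 33764 rows was -0.0045 and 49.2% of them were above 0. All 4 hairpin arrays lay above both shGFP arrays for 66 members, which is 33.3%, against 8.98% of all rows. The opposite order held for 1 member, SNORD51, against 10.1% of all rows. In limma with Benjamini-Hochberg adjustment over all rows, 0 members and 0.0% of rows were called, and the lowest adjusted p of a member was 0.456. At an unadjusted p under 0.05 there were 54 members, 27.3%, all of them higher with the hairpins, against 9.19% of all rows. Over all 262 genes found, on both sides of the level threshold, 184 were higher, and the median was 0.17, against 0.0097 over all 67528 rows. Of these genes, 79 had every hairpin array above both controls, which is 30.2%. The 8.98% covers only rows that passed the threshold, and no share was computed over the unfiltered rows. Without the array labelled sh52 replicate 1 the count among the 198 was 79 higher and 5 lower, against 12.4% and 13.9% of all rows. Without sh50 replicate 1 it was 74 higher and 4 lower, against 14.8% and 13.5% of all rows.

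**Figure D1:**
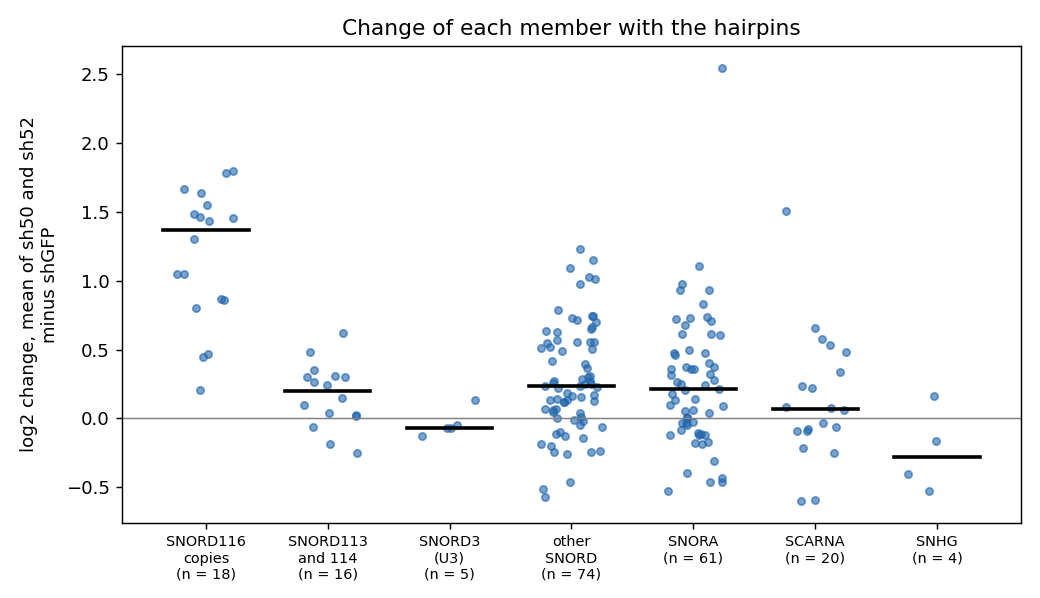
Log2 difference of each member between the mean of sh50 and sh52 and shGFP (y axis), by class or family (x axis), 1 point a member. Black lines are medians: the SNORD116 copies have a median of 1.37, SNORA members 0.21, SCARNA members 0.07 and SNHG members -0.28, and the 2 kept SNORD115 copies are among other SNORD.

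Box C/D RNAs were higher in 89 of 113 cases, with a median of 0.27. All hairpin arrays lay above both controls for 44 of them, which is 38.9%, against 8.98% of all rows. An unadjusted p under 0.05 in limma was found for 39, which is 34.5%, against 9.19% of all rows. The 18 kept copies of SNORD116, an imprinted cluster that lies in the host SNHG14 and is lost in most deletions that cause Prader-Willi syndrome, were all higher. Their median difference was 1.37, with a range from 0.21 to 1.79, and 12 copies differed by over 1. For 17 of the 18 every hairpin array lay above both controls, and the count was also 17 after leaving out sh50 replicate 1 or the array labelled sh52 replicate 1. A copy could pass the level threshold through high hairpin arrays: 2 of the 18 had a shGFP mean under it, and SNORD116-10, the copy of the 19 found that it left out, differed by -0.06. This family was set apart after its values were seen. The copies are near-identical in sequence, so one probe set may read several copies and the 18 do not count as separate observations. SNHG14 had no row under its own symbol alone and is given no value.

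SNORD116-24 stood at 9.77 and 9.58 (log2) with shGFP, at 11.99 and 11.29 with sh50, and at 11.61 and 11.00 on the arrays labelled sh52. The groups did not overlap, and the difference of the hairpin mean from shGFP was 1.79 ± 0.27 (SE, n = 2, 2 and 2 arrays), a 3.47-fold ratio if the values are base 2 without further scaling. Its adjusted p was 0.456 in limma. SNORD116-8 stood at 6.75 and 6.56 with shGFP, at 8.86 and 8.52 with sh50, and at 8.63 and 7.74 on the arrays labelled sh52, a difference of 1.78 ± 0.28 (SE). SNORD116-15 stood at 11.53 and 11.36, then 13.73 and 12.88, then 13.31 and 12.51 in the same order, a difference of 1.66 ± 0.33 (SE). In all 3 copies the controls lay close to each other, and the sh50 array of replicate 1 was the highest of the 6. SNORD116-11 was the copy with the smallest difference, 0.21 ± 0.24 (SE), and the one whose groups overlapped. Its values were 4.20 and 3.63 with shGFP, 4.16 and 3.90 with sh50, and 4.46 and 3.96 on the arrays labelled sh52.

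As the median over the 18 copies relative to the control mean, the arrays stood at 0.083 and -0.083 for shGFP, at 1.81 and 1.37 for sh50, and at 1.55 and 0.87 on the arrays labelled sh52. Replicate 1 was thus the higher array in each hairpin group. Set against the same-numbered control array, the median difference was 1.69 for sh50 replicate 1 and 1.396 for the array labelled sh52 replicate 1. For replicate 2 it was 1.36 with sh50 and 0.98 with sh52. The median of the family lay between 1.23 and 1.54 when each array was left out in turn, the lower bound being the value without the array labelled sh52 replicate 1. Leaving out sh50 replicate 1 gave 1.31. Of the 100 largest differences upward among all 33764 rows, 6 were SNORD116 copies and 8 were members of any class. The SNORD116 copies among them do not count as separate observations. None of the 100 largest downward was a member, but with 198 members among 33764 rows a count of 0 says little.

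**Figure D2:**
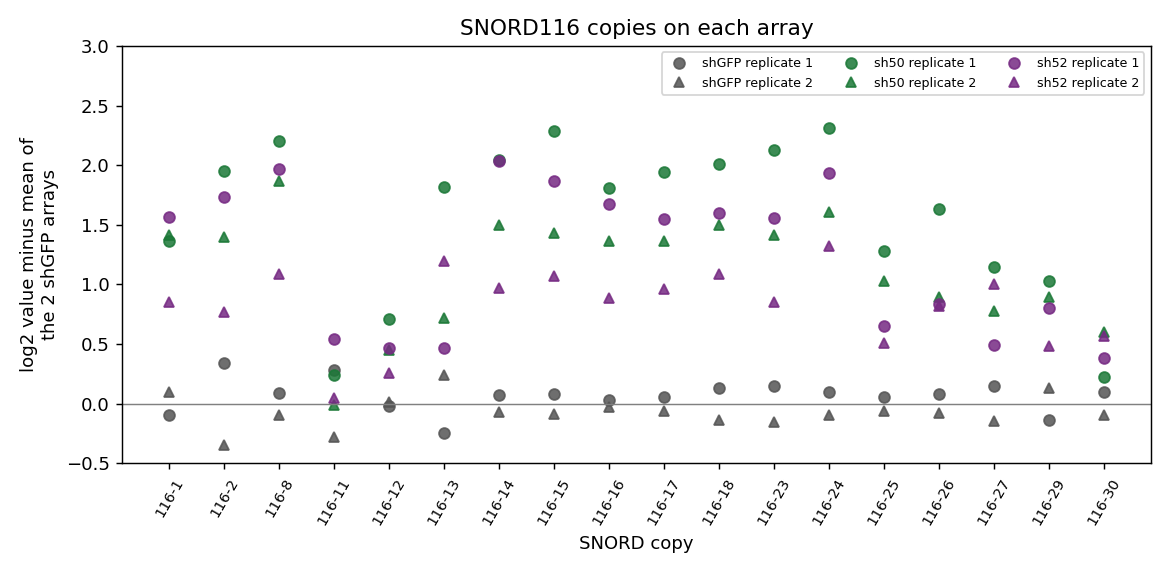
Log2 value of each SNORD116 copy (x axis) on each of the 6 arrays, minus the mean of the 2 shGFP arrays (y axis); colour gives the hairpin, circles replicate 1 and triangles replicate 2. Hairpin arrays lie above both shGFP arrays for 17 of 18 copies, and SNORD116-11 is the exception.

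Without SNORD116, 71 of the other 95 box C/D RNAs were higher, and the median was 0.22. For 27 of the 95 all hairpin arrays lay above both controls, which is 28.4%, against 8.98% of all rows. The other imprinted clusters differed less. The 16 kept copies of SNORD113 and SNORD114, which lie in the host MEG8, had a median of 0.20. All hairpin arrays lay above the controls for 1 of them, which is 6.25%, near the 8.98% of all rows. Only 2 of 31 SNORD115 copies, which share the SNHG14 host with SNORD116, were kept, with a median of 0.08. SNORD59A, a box C/D RNA inside ATP5F1B, stood at 9.78 and 10.57 with shGFP, at 11.29 and 11.58 with sh50, and at 11.16 and 11.25 on the arrays labelled sh52. The difference was 1.15 ± 0.25 (SE), adjusted p = 0.456 in limma, and its groups did not overlap.

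Members that lie outside other genes had differences nearer 0. SNORD13, a box C/D RNA that guides acetylation of cytidine in the RNA of the small ribosomal subunit, stood at 19.64 and 19.31 with shGFP, at 19.64 and 19.58 with sh50, and at 19.39 and 19.55 on the arrays labelled sh52. Its difference was 0.07 ± 0.16 (SE), with a 95% interval from -0.32 to 0.45. Its values lie close to the table's highest, 19.93, with 22 rows of higher mean, and whether a signal at this level can still register a difference was not tested. SNORD3A, a U3 RNA needed for the early cleavages of the ribosomal precursor, differed by -0.05 ± 0.16 (SE), with an interval from -0.44 to 0.34. The 5 SNORD3 genes had differences from -0.13 to 0.14, and SNORD3B-1 and SNORD3B-2 had identical values on every array, so they count as 1 measurement. The 9 small RNAs that lie in no gene of the reference table had a median difference of -0.05, against 0.25 for the 185 that lie in one. SNORD32B at 0.42 was the highest of the 9. The contrast of 9 with 185 was not tested, and 5 of the 9 are SNORD3 genes.

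SNORD51, inside the translation factor gene EEF1B2, was the only member with all hairpin arrays below both controls. It stood at 8.67 and 8.63 with shGFP, at 8.63 and 8.05 with sh50, and at 7.69 and 8.41 on the arrays labelled sh52. The higher sh50 array and the lower control were level to 2 decimals, and the difference of -0.46 ± 0.27 (SE) had an adjusted p of 0.68 in limma.

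Box H/ACA RNAs were higher in 42 of 61 cases, with a median of 0.21. All hairpin arrays lay above both controls for 19, which is 31.1%, against 8.98% of all rows. They lay below both for 0, against 10.1% of all rows. SNORA2A, inside KANSL2, had the largest difference of any member. It stood at 8.19 and 6.79 with shGFP, at 10.05 and 10.57 with sh50, and at 10.34 and 9.18 on the arrays labelled sh52. The groups did not overlap, although the controls themselves lay more than 1 apart. The difference was 2.55 ± 0.50 (SE), a 5.84-fold ratio on a base 2 reading, with an adjusted p of 0.456 in limma, and it ranked number 12 among all rows by size upward. SNORA2B, inside the same gene, stood at 6.05 and 7.02 with shGFP, at 6.67 and 6.85 with sh50, and at 5.71 and 6.25 on the arrays labelled sh52, a difference of -0.17 ± 0.32 (SE). The neighbours in KANSL2 thus lay on opposite sides of 0, though the difference between them was not tested.

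SNORA65, inside the ribosomal protein gene RPL12, stood at 13.07 and 12.20 with shGFP, at 13.62 and 14.03 with sh50, and at 13.75 and 13.55 on the arrays labelled sh52. The difference was 1.11 ± 0.28 (SE) with an adjusted p of 0.469 in limma. SNORA12, inside CWF19L1, stood at 9.35 and 9.56, then 10.21 and 10.72, then 10.53 and 10.28, a difference of 0.98 ± 0.20 (SE). In both genes the lowest hairpin array lay above the highest control. The SNORA members of highest mean differed less: SNORA48, inside EIF4A1, by 0.48 ± 0.14 (SE), SNORA23 by 0.40 ± 0.26 (SE) and SNORA24 by 0.36 ± 0.19 (SE).

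SCARNA members were split, with 11 of 20 higher and a median of 0.07. That median lay between 0.02 without sh52 replicate 2 and 0.19 without shGFP replicate 2, and every array left out moved it by over 1.5 times. SCARNA3, inside the ubiquitin ligase gene COP1, had the smallest p of any member and ranked number 8 by p among all rows. It stood at 6.53 and 6.98 with shGFP, at 8.21 and 8.29 with sh50, and at 8.38 and 8.15 on the arrays labelled sh52. Its 4 hairpin arrays lay close together and well above both controls, and the difference was 1.503 ± 0.18 (SE), a 2.83-fold ratio on a base 2 reading. The adjusted p was 0.456 in limma. SCARNA7 differed by 0.66 ± 0.20 (SE), and SCARNA12, inside PHB2, by -0.08 ± 0.27 (SE).

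Of the 4 SNHG hosts, 3 had a lower mean with the hairpins and 1 a higher one, and the groups overlapped in all 4. SNHG17, which holds the 4 SNORA71 copies, stood at 6.72 and 7.52 with shGFP, at 6.64 and 6.73 with sh50, and at 6.003 and 6.99 on the arrays labelled sh52. SNHG8, which holds SNORA24, stood at 11.12 and 10.14, then 10.57 and 10.13, then 9.90 and 10.32. The differences were -0.53 ± 0.35 (SE) for SNHG17 and -0.40 ± 0.32 (SE) for SNHG8. SNHG21 differed by -0.16 ± 0.29 (SE) and SNHG33 by 0.16 ± 0.20 (SE). The median over these 4 was -0.28, and it turned to 0.03 without shGFP replicate 2, so it rests on that control. A further 17 SNHG symbols occur in rows that list several genes and are given no value.

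**Figure D3:**
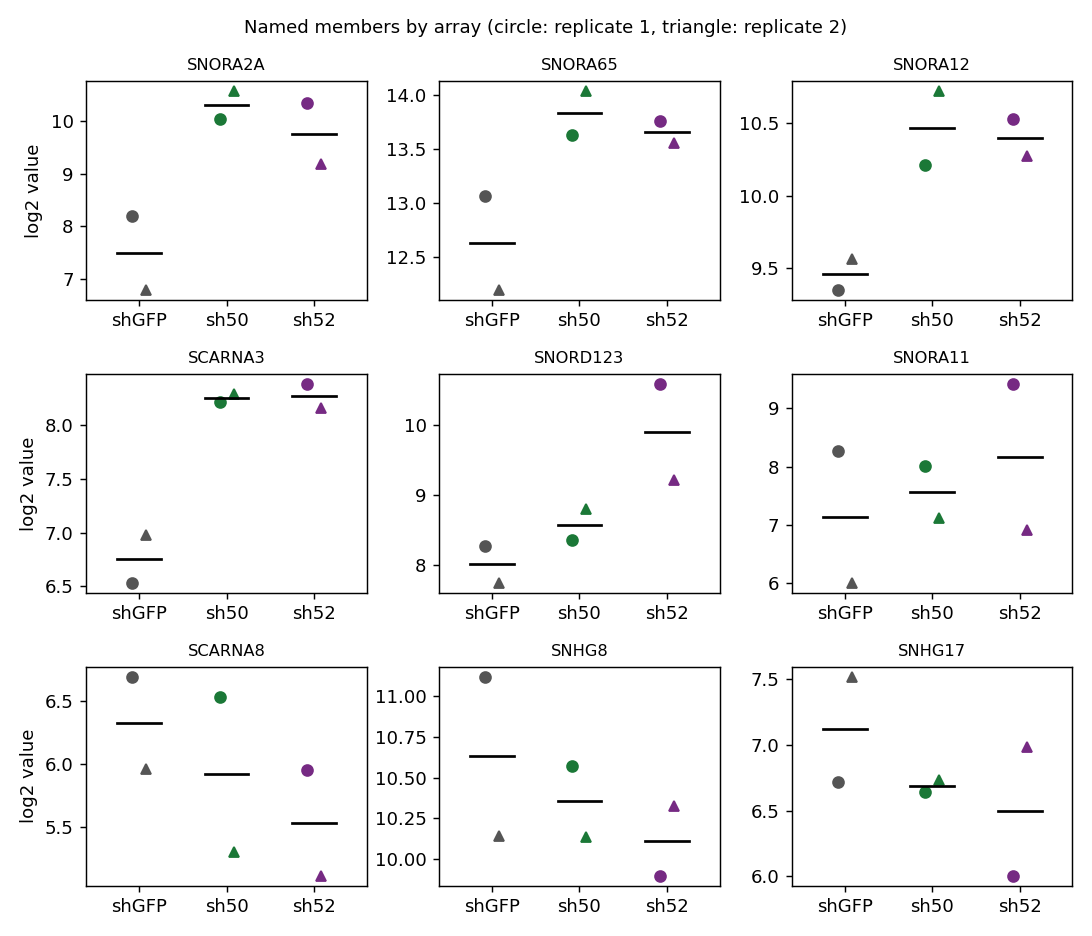
Log2 value (y axis) of 9 named members on each array, by hairpin (x axis); circles are replicate 1, triangles replicate 2 and black lines group means, and the y axes differ between panels and do not start at 0. All hairpin arrays lie above both controls for SNORA2A, SNORA65, SNORA12, SCARNA3 and SNORD123, while SNORA11 separates by replicate number and SCARNA8 is higher in replicate 1 within each group.

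Each hairpin was also set against shGFP on its own. With sh50, 146 of 198 members were higher than with shGFP, with a median of 0.25, and the arrays did not overlap for 91 higher and 11 lower members. These are 46.0% and 5.56%, against 18.4% and 20.9% of all rows. At an unadjusted p under 0.05 there were 49 members, all higher, against 8.25% of all rows, and 0 were called. With sh52, 134 were higher, the median was 0.19, and the arrays did not overlap for 83 higher and 11 lower members, against 20.2% and 19.5% of all rows. Of 48 members at an unadjusted p under 0.05, 46 were higher, against 8.78% of all rows, and 0 were called. Both contrasts use the same control arrays, so their likeness is not independent. The largest differences downward without overlap were those of SNORD111, at -0.52, and SNORA10 with sh50. With sh52 they were those of SCARNA22, at -1.06, and SCARNA8, at -0.79.

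Between the hairpins, more members were lower with sh52 than higher. There were 76 higher and 122 lower in sh52 against sh50, with a median of -0.07 against 0.01 over all rows, and the arrays did not overlap for 15 higher and 42 lower members. These are 7.58% and 21.2%, against 17.3% and 16.6% of all rows. At an unadjusted p under 0.05 there were 2 higher and 10 lower members, together 6.06%, near the 6.33% of all rows, and 0 were called in limma. The SNORD116 copies, which do not count as separate observations, were lower with sh52 in 16 of 18 cases, with a median of -0.37. The arrays did not overlap for 3 of them, which is 16.7%, near the 16.6% of all rows. An unadjusted p under 0.05 in limma was found for 1, or 5.56%, against 6.33% of all rows. SNORD123, a box C/D RNA inside SNHG18, went the other way. It stood at 8.27 and 7.74 with shGFP, at 8.35 and 8.79 with sh50, and at 10.59 and 9.21 on the arrays labelled sh52. Its sh52 arrays lay above every other array, and the difference of sh52 from sh50 was 1.32 ± 0.48 (SE), adjusted p = 0.769 in limma.

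SNORA36C, inside AAK1, stood at 6.55 and 6.20 with shGFP, at 5.93 and 5.97 with sh50, and at 7.40 and 6.58 on the arrays labelled sh52. Its control arrays thus lay between the hairpin groups, and sh52 minus sh50 was 1.04 ± 0.30 (SE). SNORD56B, inside SIPA1L1, stood at 5.10 and 5.49 with shGFP, at 5.85 and 6.27 with sh50, and at 5.23 and 4.84 on the arrays labelled sh52. It was higher with sh50 alone, and sh52 minus sh50 was -1.02 ± 0.25 (SE), adjusted p = 0.668 in limma. SCARNA22, inside NSD2, stood at 9.23 and 10.01 with shGFP, at 9.75 and 9.23 with sh50, and at 8.67 and 8.45 on the arrays labelled sh52. It was lower with sh52 alone, by -1.06 ± 0.32 (SE) from shGFP.

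The small RNAs were then set beside the genes that hold them. Of the 198 members, 185 lie within a gene of the RefSeq table, by containment without regard to strand, and 94 of them lie within a gene that had a row of its own at or above the level threshold. These make 95 pairs with 78 hosts. In the mean over both hairpins, the small RNA was above 0 and its host below 0 in 53 pairs, and the reverse held in 1 pair. Both were above 0 in 16 pairs and both below in 25. Most small RNAs were above 0 and most hosts below it, so many opposite pairs would arise under any pairing. That number was not computed. The small RNA had the larger signed difference in 84 of 95 pairs, with a median of 0.23, against -0.33 for the host. Across these pairs the differences were weakly related, with Pearson's r of 0.26 and Spearman's rho of 0.27. The points share arrays and some share a host, so these describe the pairs and are given without a p.

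Single hosts show the same split, in examples chosen after their values were seen. KANSL2 differed by -0.28, while SNORA2A within it differed by 2.55. RPL12 differed by -0.40 and SNORA65 by 1.11. COP1 differed by -0.07 and SCARNA3 by 1.503. The host in these pairs lay at or below 0, with the small RNA well above it. The 4 SNORA71 copies in SNHG17, near-identical RNAs that probes may not tell apart, differed by 0.32 to 0.49 while SNHG17 differed by -0.53. NOP58, itself a core protein of the box C/D particle, differed by -0.74, with SNORD70 at 0.70, SNORD11 at 0.15 and SNORD11B at -0.04. Nucleolin, encoded by NCL, a nucleolar protein of ribosome assembly, differed by -0.53, with SNORD82 at 0.57, SNORD20 at 0.12 and SNORA75 at -0.12. SNORD11B and SNORA75 thus lay below 0, though close to it, and no difference between small RNAs of the same host was tested. SNORA11 and its host MAGED2 were both above 0, at 0.72 and 0.93. The lowest host was ODC1, the enzyme that starts polyamine synthesis, at -1.77, with SNORA80B at -0.03.

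**Figure D4:**
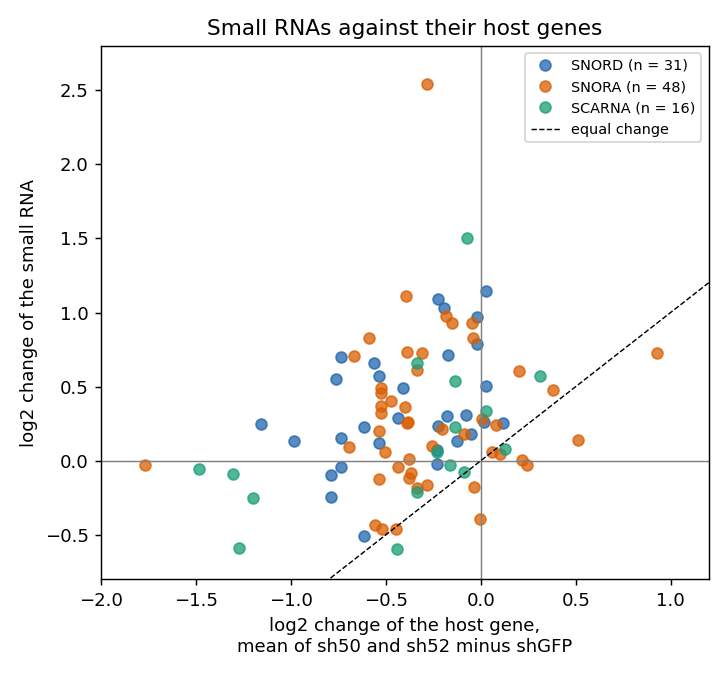
Log2 difference of each small RNA (y axis) against that of its host gene (x axis), mean of sh50 and sh52 minus shGFP, for 95 pairs coloured by class; the dashed line marks equal differences. The small RNA lies above the line in 84 pairs, and 53 pairs lie in the upper left, small RNA above 0 and host below 0.

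The protein genes of the pathway tended to the other side of 0, as did the 78 hosts above, whose median over distinct hosts was -0.27. No difference of the pathway from other protein genes was tested. Of the 8 core proteins of these particles, 6 had a row of their own, and 5 of those were lower with the hairpins in the mean of both, with a median of -0.25. Fibrillarin, encoded by FBL, stood at 10.75 and 10.80 with shGFP, at 10.28 and 9.66 with sh50, and at 10.12 and 10.54 on the arrays labelled sh52. All hairpin arrays lay below both controls, and the difference was -0.62 ± 0.23 (SE), adjusted p = 0.519 in limma. NOP58 differed by -0.74 ± 0.39 (SE) and GAR1, a core protein of the H/ACA particle, by -0.42 ± 0.20 (SE), also without overlap. SNU13 at -0.06, NHP2 at -0.08 and NOP10 at 0.31 overlapped with the controls. NOP56 and DKC1 had no row under a single symbol and are given no value.

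All 16 genes of particle assembly and maturation were below 0, with a median of -0.39, and 5 had all hairpin arrays below both controls, which is 31.2%, against 10.1% of all rows. COIL, the scaffold of Cajal bodies, differed by -0.71 ± 0.19 (SE) and NOLC1, a chaperone that moves between nucleolus and Cajal body, by -0.71 ± 0.36 (SE). Of 10 measured genes of intron turnover and nonsense-mediated decay, which remove spliced introns and short-lived host transcripts, 9 were lower, with a median of -0.33. SMG1, the kinase of nonsense-mediated decay, stood at 12.47 and 12.74 with shGFP, at 12.01 and 12.04 with sh50, and at 11.86 and 11.92 on the arrays labelled sh52. Its groups did not overlap, and the difference was -0.65 ± 0.14 (SE), adjusted p = 0.456 in limma. EXOSC10, the nuclear exosome nuclease that trims small nucleolar RNAs, differed by -0.68 ± 0.24 (SE).

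Of 16 U3 processome and early assembly genes, 15 were lower, with a median of -0.51, among them UTP20 at -1.05 ± 0.57 (SE) and DDX21 at -0.94 ± 0.50 (SE). Of 10 measured genes of RNA polymerase I and its factors, 8 were lower, with a median of -0.22. From a list of 30 protein-coding snoRNA hosts, 9 had a row of their own, 8 of them lower, with a median of -0.20. None of these genes was called in limma, and the array labelled sh52 replicate 1 was the lowest of the 6 for UTP20, DDX21, NOP58 and NOLC1.

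Other short RNAs on the same arrays give a scale for these differences. The 155 rows of RNU genes, named as small nuclear RNAs or copies of them, had a median of -0.05 in the mean of both hairpins, with 59 higher. The 44 RNY rows, copies of RNAs that bind the Ro protein, had a median of 0.26, with 36 higher and 12 with all hairpin arrays above both controls, which is 27.3%, against 8.98% of all rows. The 10 RN7S rows had a median of 0.10, the 4 vault RNA rows 0.01 and the 398 microRNA rows -0.04. The 52 ribosomal protein genes had a median of -0.12. A shift of the size seen in the small nucleolar RNAs thus also occurred in RNY rows, and no difference between these families was tested.

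Between the replicate numbers, the members split by family. Over the 3 groups, replicate 1 was above replicate 2 for 103 of 198 members, with a median of 0.01, while the median over all rows was -0.04. The sign was the same in all 3 groups for 34 higher and 32 lower members, 17.2% and 16.2%, against 11.3% and 20.1% of all rows. No member was called, against 9 rows or 0.0267% of all rows, and 33 members had an unadjusted p under 0.05, 16 of them higher, against 10.4% of all rows. The named rows among those 9 were PTGS2, CXCL8, IL6 and FGF7, all of them inflammatory or growth factor genes, and all higher in replicate 1.

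SNORD116 copies were higher in replicate 1 in 16 of 18 cases, with a median of 0.43. That sign held in all 3 groups for 12 of them, which is 66.7%, against 11.3% of all rows. These near-identical copies do not count as separate observations. SNORD113 and SNORD114 copies were higher in 14 of 16, with a median of 0.27. The 5 SNORD3 genes were all higher, with that sign in all 3 groups, against 11.3% of all rows, and a median of 0.17. SNORD3B-1 and SNORD3B-2 among them count as 1 measurement. The other 72 box C/D RNAs outside the SNORD3, SNORD115 and imprinted families were higher in 23, with a median of -0.14. Of all rows, 41.6% were higher. Of the 72, 22 were lower in all 3 groups, which is 30.6%, against 20.1% of all rows. The imprinted and SNORD3 families thus lay above 0 and most of the 72 below it, which leaves the median of all 113 box C/D RNAs at 0.02. Members also differed by level. Of 64 below the 75th percentile of row means, 43 were higher, with a median of 0.10. Of 134 at or above it, 60 were higher, with a median of -0.03. Family was not tested apart from level. SNORA members had a median of 0.01, whose sign turned with a level filter at the 75th percentile and without either array labelled sh52. Leaving out either of these arrays gives the same fit in this comparison. SCARNA members had a median of -0.03, whose sign turned after another quantile normalization.

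**Figure D5:**
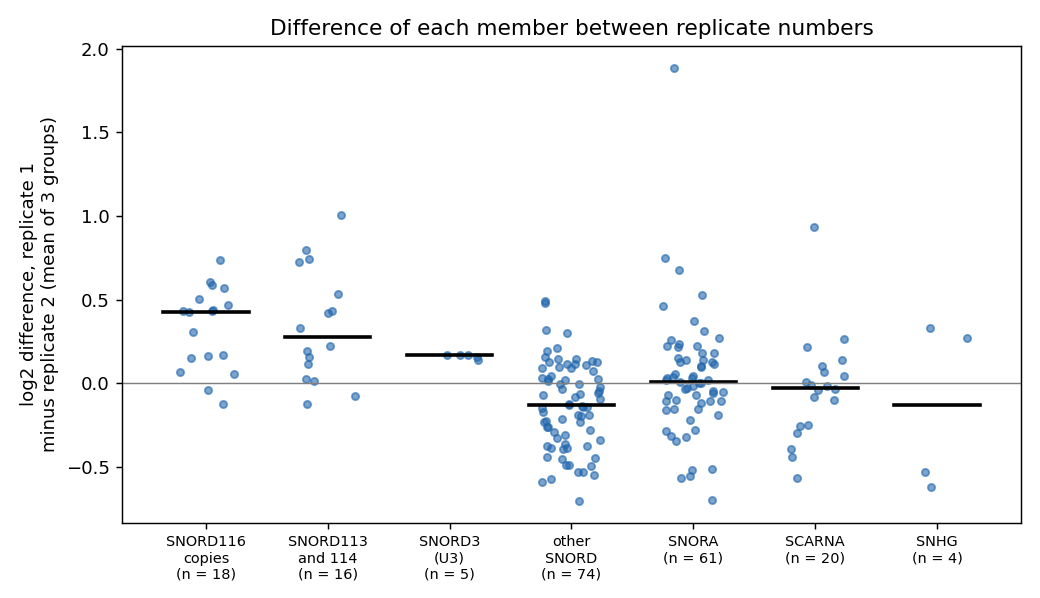
Log2 difference of each member between replicate 1 and replicate 2, as the mean over the 3 groups (y axis), by class or family (x axis), 1 point a member and black lines for medians. SNORD116 copies have a median of 0.43 and SNORD113 and SNORD114 copies of 0.27, while most other SNORD members lie below 0.

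SNORA11, a box H/ACA RNA inside MAGED2, had the largest difference between replicate numbers. It stood at 8.27 and 6.01 with shGFP, at 8.02 and 7.12 with sh50, and at 9.41 and 6.91 on the arrays labelled sh52, so the 3 arrays of replicate 1 were the 3 highest. The difference was 1.89 ± 0.34 (SE), adjusted p = 0.278 in limma. SCARNA8, inside HAUS6, stood at 6.69 and 5.96, then 6.53 and 5.30, then 5.95 and 5.12, a difference of 0.93 ± 0.16 (SE) with an adjusted p of 0.261, the lowest of any member. SNORD114-3 was higher in replicate 1 by 1.01 ± 0.30 (SE), and SNORD114-21 and SNORD116-2 by 0.74 each. In the other direction, SNORD75 inside GAS5 differed by -0.70 ± 0.16 (SE), SNORD12 inside ZFAS1 by -0.59 ± 0.20 (SE) and SNORD18B inside RPL4 by -0.57 ± 0.17 (SE). SNORA79 differed by -0.51 ± 0.13 (SE), SCARNA1 by -0.57 ± 0.20 (SE), and the hosts SNHG17 and SNHG21 by -0.62 ± 0.21 (SE) and -0.53 ± 0.17 (SE). Each of these had the same sign in all 3 groups, and none was called.

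The 64 genes below the level threshold were 29 SNORD115, 24 SNORD113 or SNORD114 and 1 SNORD116 copies, 6 other SNORD, 3 SNORA and 1 SCARNA gene. Just inside the threshold lay SNORD114-7, SCARNA11 and SNORA35, and just outside lay SNORD113-3 with a mean of 3.94, SNORD116-10 with 3.93 and SNORD113-4 with 3.92. SNORD116-10 stood at 4.01 and 3.94 with shGFP, at 3.96 and 4.56 with sh50, and at 3.40 and 3.72 on the arrays labelled sh52, a difference of -0.06 ± 0.20 (SE) in the mean of both hairpins. Both arrays labelled sh52 lay below every shGFP and sh50 array.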

How the data were processed

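Total RNA of 6 U87MG samples was hybridised to Affymetrix HTA-2_0 arrays. Per the labels, the deposited log2 values come from the authors' RMA run in Expression Console (core-exon analysis). The submitters' processing notes also list Transcriptome Analysis Console. Versions, background settings and the log base were not given in the sources used here. The base is taken as 2, and folds hold only for base 2 without further scaling.

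Of 70523 features, 67528 transcript cluster rows were used, and the 33764 with a mean at or above their median were fitted with limma 3.58.1 (R 4.3.3) over all 6 arrays, with 3 residual and 2.67 prior degrees of freedom. Tests were two-sided at a Benjamini-Hochberg adjusted p of 0.05. The replicate comparison added the replicate number to the groups. The fit was tested on simulated data. The platform annotation gave 1 symbol for 23781 rows, several for 1543 and none for 42204. Named members are those with the highest means, the largest differences without overlap in each comparison and those nearest the level threshold, with further hosts chosen after their values were seen. Members, lists and rules were chosen with earlier results of these data known. Hosts come from a RefSeq gene table of GRCh38.p14 by containment, since it gives no strand where the rule asked for the same strand. Sequences of the small RNAs were not used here. The number of arrays limits the precision.

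Alternatives were the replicate number as a block, the replicate number alone, no filter, a filter at the 75th percentile, trend and robust options, quantile normalization, centred arrays, the mean of all rows of a gene, only the groups compared, and each array left out. The values of the SNORD116 family and the counts without overlap, each with arrays left out, were added after seeing the data.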

Additional observations from a re-analysis of the deposited data

How the results depend on the processing

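In the hairpin comparisons 0 members were called by limma under every alternative run, and every class median there kept its sign with all 6 arrays, except that of SCARNA members with sh52, which was -0.011 with centred arrays. With the replicate number as a replicate block, 0 rows were called in the mean over both hairpins, and 3801 had an unadjusted p under 0.05, against 3102 without it. Deviations of same-numbered arrays correlated at 0.39 for shGFP and sh50, 0.35 for shGFP and sh52 and 0.05 for sh50 and sh52, so the labels' numbers are not shown to pair the samples, and the block changed no call.

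In the replicate comparison, the median over box C/D RNAs was -0.12 with a filter at the 75th percentile and lay between -0.0500 and 0.0455 with an array left out, negative without either sh50 array. There 4 rows were called with the replicate number alone, and between 0 and 18 with an array left out, 0 when any of the shGFP or sh50 arrays was left out and 18 when either array labelled sh52 was. With sh52 against shGFP and against sh50, between 0 and 1 rows were called with an array left out, 1 without sh52 replicate 2. The SNHG median lay between -0.19 and 0.0713 with sh50, -0.62 and -0.0274 with sh52, -0.40 and 0.0263 in the mean of both, and -0.45 and 0.00552 between the hairpins, the upper ends without shGFP replicate 2, or without the array labelled sh52 replicate 1 between the hairpins. With an array left out, the SNORA median between the hairpins lay between -0.12 and 0.02. That of SCARNA members with sh52 against shGFP lay between -0.007 and 0.12, so both could turn sign. The cause was not tested, and these fits rest on fewer arrays. In the hairpin comparisons a lone array of a group is assumed to vary like the others, and in the replicate comparison it carries no information. Near-identical copies, host exons and rows with several symbols limit what a row names.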
